A study of Homo sapiens with 6 samples.

Results

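Keratin genes were examined on 6 arrays of HSC3 cells, a human line derived from an oral squamous cell carcinoma of the tongue. A gene was taken as a member when its symbol is KRT followed by a number and at most one letter, with pseudogenes and keratin-associated protein genes left out. Of 18757 named genes on the array, 47 were keratin genes by this rule. Another 8 keratin genes of the RefSeq table, KRT3, KRT6A, KRT6B, KRT26, KRT39, KRT77, KRT86 and KRT222, have no probe that could be named here and were not analysed. The labels name 1 array each for control cells and for cells given siRNA against MIA, MIA2, LEMD1, TANGO or MATE2. The deposited design describes the control cells as transfected with control siRNA, whereas the array methods describe HSC3 cells without treatment, so the control is called here by its label. Each condition rests on 1 array of 1 cell line, so a ratio has no replicate check and no error, and no test between conditions was possible. All values below are spot intensities above local background, quantile normalized over the 6 arrays, and a gene was called higher or lower when its signal differed at least 2-fold from control with a spot that the scanner flagged as good on both arrays.

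Keratins are the intermediate filament proteins of epithelial cells. Each filament is built from an acidic type I and a basic type II keratin in equal amounts, so the genes are used in pairs. KRT5 and KRT14 are the pair of dividing basal keratinocytes, KRT4 and KRT13 that of the upper layers of the oral mucosa, KRT1 and KRT10 that of cornifying skin, and KRT8 and KRT18 that of simple epithelia, often joined by KRT19. KRT6, KRT16 and KRT17 are induced in wounded or hyperproliferative epithelium.

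Good spots numbered 27545 to 30628 of 53103 gene probes on an array. The siRNA targets were checked first. The signal of LEMD1, 277.9 in control cells, lay near background after LEMD1 siRNA, at least 10.1-fold lower, and also after MIA2 siRNA, at least 6.57-fold lower. SLC47A2, the gene of MATE2, was 19.0-fold lower on the MATE2 siRNA array and 25.6-fold lower on the TANGO siRNA array, and the good probe of MIA2 was at a log2 ratio of 0.12 on the array labelled MIA2 siRNA. MIA was near background on every array and no probe is named here for MIA3, the gene of TANGO. Some knockdowns were therefore not seen or were shared with another array, and conditions are named by their labels throughout. The TANGO and MATE2 siRNA arrays stood apart from the other 4 arrays, with the highest shares of genes called and with LEMD1 at 3192 and 1011. Of epithelial marker genes, EPCAM, SFN, TP63 and ITGB4 had good spots on all 6 arrays, and ITGB4 was called lower on the MIA2 and MATE2 siRNA arrays. The summed signals of the fibroblast, endothelial and melanocyte lists were 393, 431 and 320.4 on control, and 695, 622 and 219.9 on MATE2 siRNA, 542, 595 and 184 on TANGO siRNA, 581, 586 and 200.5 on MIA2 siRNA, 551, 448 and 190.2 on LEMD1 siRNA, and 513, 456 and 279 on MIA siRNA. These sums include spots near background, and on control PECAM1, at 338, and PMEL, at 249, made up most of their lists. COL1A1, a fibroblast collagen, was called higher on the MATE2 siRNA array (2.09-fold), and PMEL, a melanosome protein, lower on the MIA2 and TANGO siRNA arrays (2.03-fold and 2.02-fold). For COL1A1 control was the lowest array, at 142 against 168 to 296. For PMEL it was the highest, at 249 against 122 to 203. PTPRC, CDH5, KDR, DCN, COL3A1 and MLANA had no good spot on any array, whereas COL1A1, PECAM1 and PMEL had one on all 6. What part other cells had in the keratin values was not tested, and on bulk RNA fewer cells of a type cannot be told apart from less RNA per cell.

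Of the 47 keratin genes, 30 had a good spot on all 6 arrays, 7 on some of them (KRT13 because of saturation), and 10 were near background on every array. The largest differences from control lay on the TANGO and MATE2 siRNA arrays, in both directions, and the MIA siRNA array had none. On the MIA siRNA array 0 of 33 measured keratins was at least 2-fold higher or lower, beside 0.391% higher and 0.258% lower among all named genes measured, and its keratin log2 ratios ran from -0.72 for KRT38 to 0.83 for KRT84. On the MIA2 siRNA array 5 of 33 were higher (15.2%, against 3.29% of all genes) and 2 lower (6.06%, against 5.21%). The LEMD1 siRNA array had 6 of 34 higher (17.6%, against 2.03%) and 1 lower (2.94%, against 3.98%). The TANGO siRNA array had 5 of 31 higher (16.1%, against 5.57%) and 4 lower (12.9%, against 9.09%). On the MATE2 siRNA array 5 of 34 were higher (14.7%, against 5.95%) and 6 lower (17.6%, against 11.7%). These counts leave out KRT13 on the TANGO and MATE2 siRNA arrays, where its spot was saturated. The share of higher keratins was above that of all genes on each of these 4 arrays, whereas the share of lower ones was near it on the MIA2 and LEMD1 siRNA arrays. Calls of the 5 comparisons share the control array.

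On each array most measured keratins stayed short of 2-fold. The median log2 ratio of the measured keratins was 0.0066 on the MIA siRNA array, 0.30 on MIA2, 0.14 on LEMD1, 0.29 on TANGO and 0.24 on MATE2, beside -0.041, -0.0073, -0.023, -0.031 and -0.033 for all named genes in the same order. The robust SD of the log2 ratio over all genes was 0.25, 0.53, 0.42, 0.61 and 0.65 in that order and holds real changes as well as noise. Over the measured keratins it was larger on each array, at 0.34, 0.74, 0.62, 0.73 and 0.77. By class, the median of the 3 basal keratins was 1.65 on the MIA2 siRNA array and 1.43 on LEMD1, and -0.70 and -0.93 on TANGO and MATE2. The 4 measured keratins of wounded epithelium had medians of 0.17, 0.054, 1.85 and 2.87 on the same arrays. The 4 measured simple epithelial keratins had medians of -0.96, -0.81, -2.45 and -2.41, and the hair and inner root sheath keratins 0.13, 0.12, 0.38 and 0.31. The median of the family thus does not show its members with large ratios, nor its spread.

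**Figure D1:**
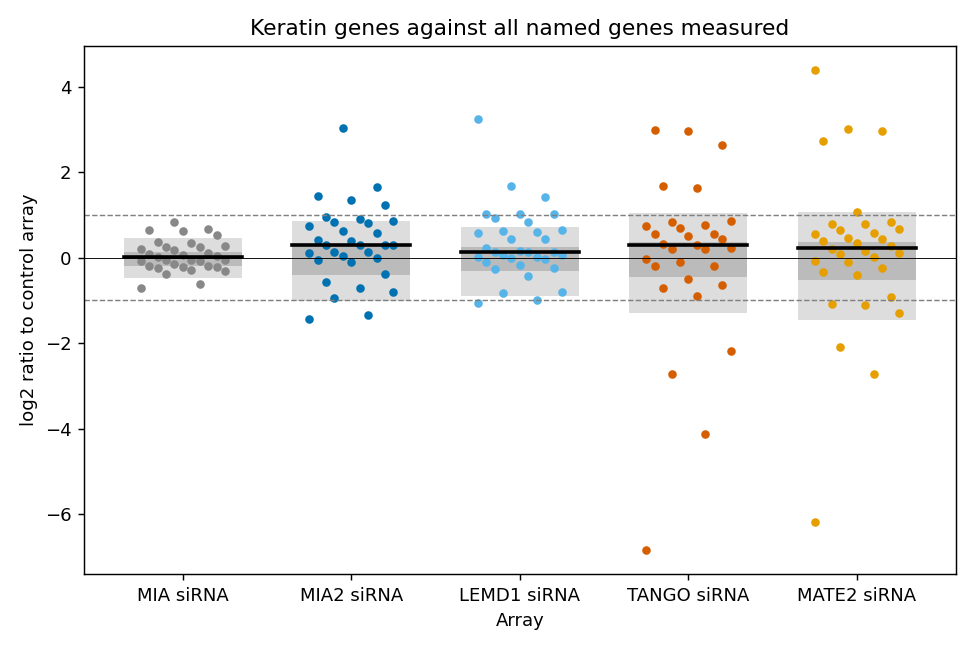
Log2 ratio to the control array (y axis) of each measured keratin gene, by siRNA array (x axis). Points are genes and black bars their medians; dark and light grey boxes span the 25th to 75th and the 5th to 95th percentiles of all named genes measured, and dashed lines mark a 2-fold difference. The TANGO and MATE2 siRNA arrays hold the lowest points, KRT19 at -6.85 and -6.19.

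**Figure D2:**
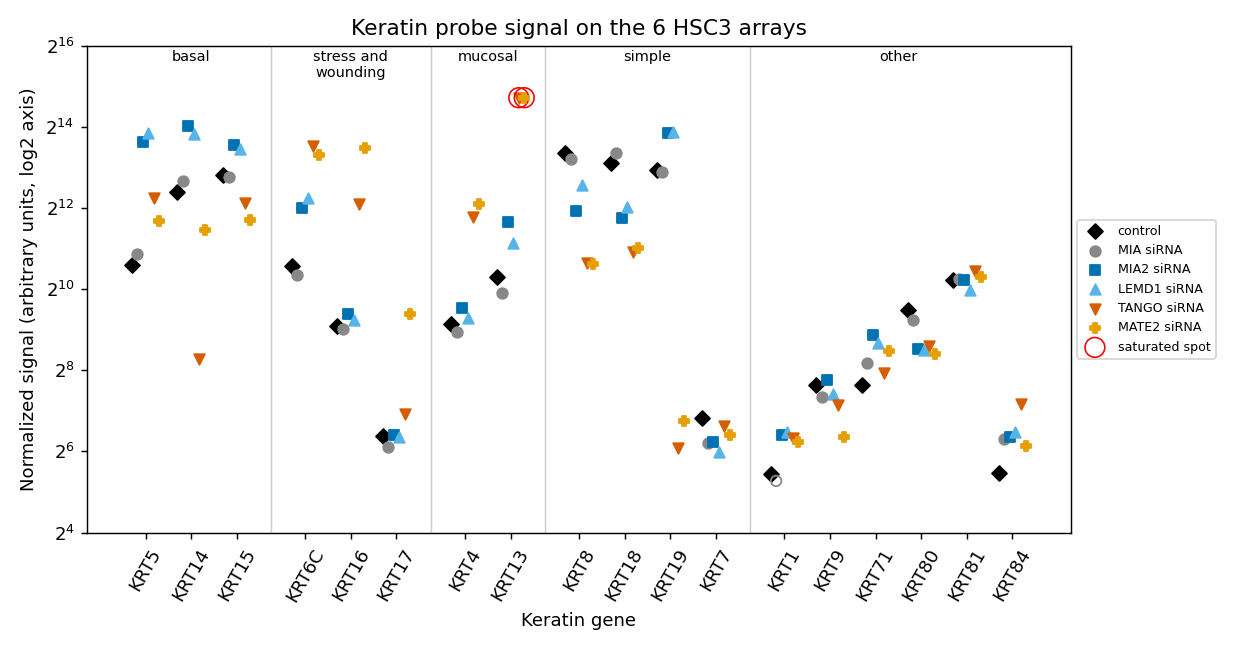
Normalized signal (y axis, log2 scale, arbitrary units) of named keratin genes (x axis) on each array. Filled symbols are good spots, open symbols are spots near background and red circles mark saturated spots. Signals of different probes are not comparable with each other. The control and MIA siRNA arrays lie close together, while KRT19 drops to 68.4 and 108 on the TANGO and MATE2 siRNA arrays.

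Of the 3 basal keratins, KRT5 and KRT14 were called higher on the MIA2 and LEMD1 siRNA arrays (66.7%, against 3.29% and 2.03% of all genes). On the TANGO and MATE2 siRNA arrays KRT5 was called higher and KRT14 or KRT15 lower, 33.3% each way. Beside these stood 5.57% of all genes higher and 9.09% lower on TANGO, and 5.95% and 11.7% on MATE2. KRT5 had a signal of 1558 on control, 1867 on MIA siRNA, 12771 on MIA2 siRNA, 14792 on LEMD1 siRNA, 4837 on TANGO siRNA and 3283 on MATE2 siRNA. It was the one keratin besides KRT6C that was called higher on 4 arrays. The fold was 8.20 on the MIA2 siRNA array, the 3rd largest rise among 12451 named genes, and 9.49 on the LEMD1 siRNA array, the 2nd largest among 12924. On the TANGO and MATE2 siRNA arrays KRT5 was 3.10-fold and 2.11-fold higher, though its log2 ratio on the MATE2 siRNA array was 0.81 against the MIA siRNA array in place of control. KRT14, the filament partner of KRT5, had a signal of 5354 on control, 6483 on MIA siRNA, 16780 on MIA2 siRNA, 14440 on LEMD1 siRNA, 308.6 on TANGO siRNA and 2812 on MATE2 siRNA. KRT14 followed KRT5 on the MIA2 and LEMD1 siRNA arrays, with log2 ratios of 1.65 and 1.43, and parted from it on the TANGO siRNA array, where it was 17.3-fold lower at a log2 ratio of -4.12. That was the 7th largest fall among 12524 genes. On the MATE2 siRNA array KRT14 was at -0.93, short of 2-fold. KRT15, a type I keratin of basal cells, had a signal of 7215 on control, 6976 on MIA siRNA, 11982 on MIA2 siRNA, 11300 on LEMD1 siRNA, 4441 on TANGO siRNA and 3354 on MATE2 siRNA. Its only call was on the MATE2 siRNA array, at -1.11, and its log2 ratios on the MIA2 and LEMD1 siRNA arrays were 0.73 and 0.65.

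Promoter sequence could be set beside the values for a part of the family. RefSeq promoter windows were held for 31 of the 47 genes, in 35 windows, and each was read for 4 motifs on both strands in the 250 bases before the start. The TATA box letters TATAA were in 25 of the 35 windows (71.4%) and in 18.9% of all 35116 windows of this length. The AP-1 letters TGANTCA were in 0 of them, beside 6.57% of all windows. The SP1 letters GGGCGG were in 4 (11.4%, against 42.6%), and the letters CCAAT were in 15 (42.9%, against 32.0%). A match describes the letters alone and says nothing of a factor. Shown are the windows of KRT5, higher on 4 arrays, and of KRT4, higher on the TANGO and MATE2 siRNA arrays alone, in build GRCh38.p14 on the minus strand, at chr12:52520395-52520644 and chr12:52814117-52814366. Capitals mark a match to any of the 4 motifs. KRT5 holds none of them and KRT4 holds TATAA, from 29 to 25 bases before the start. Only exact letters were matched, so this does not show that KRT5 lacks a TATA box.
KRT5: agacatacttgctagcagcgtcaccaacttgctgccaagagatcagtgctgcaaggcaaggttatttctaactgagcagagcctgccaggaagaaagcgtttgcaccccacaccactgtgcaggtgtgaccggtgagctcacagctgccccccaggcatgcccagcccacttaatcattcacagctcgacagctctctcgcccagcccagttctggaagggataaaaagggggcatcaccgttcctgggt
KRT4: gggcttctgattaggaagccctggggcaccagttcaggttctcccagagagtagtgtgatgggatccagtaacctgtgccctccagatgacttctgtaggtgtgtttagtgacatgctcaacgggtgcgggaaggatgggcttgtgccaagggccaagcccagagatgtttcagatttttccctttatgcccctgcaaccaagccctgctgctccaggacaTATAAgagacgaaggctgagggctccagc

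**Figure D3:**
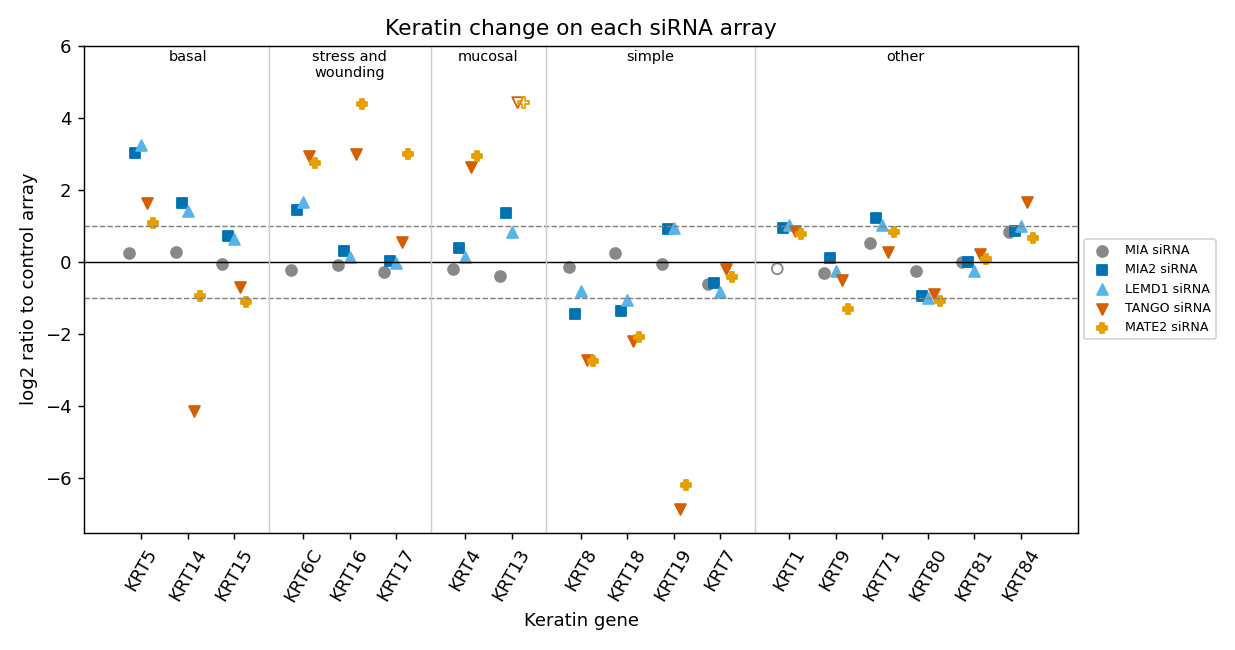
Log2 ratio to the control array (y axis) of named keratin genes (x axis) on each siRNA array. Filled symbols are ratios of good spots, open symbols are bounds where a spot was saturated or near background, and dashed lines mark a 2-fold difference. KRT14 lies at 1.65 on the MIA2 siRNA array and at -4.12 on the TANGO siRNA array.

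Keratins of wounded and hyperproliferative epithelium were called higher in every case where they were called. Of 4 measured, 1 was called on the MIA2 siRNA array and 1 on LEMD1 (25% each, against 3.29% and 2.03% of all genes called higher). On the TANGO siRNA array 2 were called (50%, against 5.57%), on MATE2 3 (75%, against 5.95%) and on MIA 0. KRT6C had a signal of 1526 on control, 1306 on MIA siRNA, 4132 on MIA2 siRNA, 4855 on LEMD1 siRNA, 11846 on TANGO siRNA and 10188 on MATE2 siRNA. The 4 called folds ran from 2.71 on MIA2 siRNA to 7.76 on TANGO siRNA. KRT6A and KRT6B are nearly identical to KRT6C in sequence, so the probe may read all of them, which was not tested. KRT16, a type I partner of KRT6, had a signal of 549 on control, 521 on MIA siRNA, 676 on MIA2 siRNA, 602 on LEMD1 siRNA, 4378 on TANGO siRNA and 11539 on MATE2 siRNA. It was 7.98-fold higher on the TANGO siRNA array and 21.0-fold higher on the MATE2 siRNA array, and its log2 ratios on the other 3 arrays lay between -0.07 and 0.30. KRT17, also a type I keratin of stressed epithelium, had a signal of 83.2 on control, 68.5 on MIA siRNA, 85.3 on MIA2 siRNA, 81.6 on LEMD1 siRNA, 122 on TANGO siRNA and 666 on MATE2 siRNA. Only the MATE2 siRNA array passed 2-fold, at 8.01-fold, and on the TANGO siRNA array the log2 ratio was 0.55. KRT16 was thus called on the TANGO and MATE2 siRNA arrays, KRT17 on the MATE2 siRNA array, and KRT6C on these and on the MIA2 and LEMD1 siRNA arrays. KRT75, of the hair follicle companion layer, was listed with this group and had no call, with its highest signal, 1096, on the TANGO siRNA array against 653 on control.

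The mucosal pair was high on the TANGO and MATE2 siRNA arrays. KRT4 had a signal of 563 on control, 491 on MIA siRNA, 746 on MIA2 siRNA, 625 on LEMD1 siRNA, 3508 on TANGO siRNA and 4378 on MATE2 siRNA. The folds on the TANGO and MATE2 siRNA arrays were 6.23 and 7.78, and no other array reached 2-fold. KRT13, the partner of KRT4, had a signal of 1257 on control, 957 on MIA siRNA, 3226 on MIA2 siRNA and 2247 on LEMD1 siRNA, and its spot was saturated on the TANGO and MATE2 siRNA arrays. It was the only saturated gene probe on either array. From the normalized value of the saturated spots, KRT13 was at least 21.5-fold higher there. Quantile normalization sets that value, 27048 on both arrays, from the rank of the spot, so the fold does not measure how far KRT13 rose. On the MIA2 siRNA array it was 2.57-fold higher, and on the LEMD1 siRNA array its log2 ratio was 0.84. KRT76, of the hard palate, had log2 ratios of 0.14 to 0.55, without a call, and KRT12, of the cornea, was near background on every array. Of these mucosal and corneal keratins, 1 of 3 measured was called higher on the MIA2 siRNA array (33.3%, against 3.29% of all genes) and 0 of 3 on LEMD1. On the TANGO and MATE2 siRNA arrays it was 1 of 2 (50%, against 5.57% and 5.95%), with the saturated KRT13 left out.

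Of 4 simple epithelial keratins measured against control, 0 were called on the MIA siRNA array. KRT8 and KRT18 were called lower on the MIA2 siRNA array (50%, against 5.21% of all genes) and KRT18 on the LEMD1 siRNA array (25%, against 3.98%). On the TANGO and MATE2 siRNA arrays KRT8, KRT18 and KRT19 were called lower (75%, against 9.09% and 11.7%). KRT8 had a signal of 10524 on control, 9560 on MIA siRNA, 3870 on MIA2 siRNA, 6075 on LEMD1 siRNA, 1594 on TANGO siRNA and 1589 on MATE2 siRNA. The fall was 2.72-fold on the MIA2 siRNA array, and 6.60-fold and 6.62-fold on the TANGO and MATE2 siRNA arrays, while on the LEMD1 siRNA array the log2 ratio was -0.79. KRT18, the partner of KRT8, had a signal of 8785 on control, 10524 on MIA siRNA, 3465 on MIA2 siRNA, 4210 on LEMD1 siRNA, 1935 on TANGO siRNA and 2066 on MATE2 siRNA. It was called lower on 4 arrays, at log2 ratios of -1.34, -1.06, -2.18 and -2.09. A second KRT18 probe gave -1.57, -1.45, -2.69 and -2.32 on the same arrays, and 0.12 on the MIA siRNA array. The name of both KRT18 probes comes from the platform table, as the RefSeq table does not hold the accession in the scanner files, and KRT8 and KRT18 have many pseudogenes that a probe may share, which was not tested.
KRT19, a type I keratin of simple and mucosal epithelium, had the widest span of the family. Its signal was 7883 on control, 7579 on MIA siRNA, 14792 on MIA2 siRNA, 15098 on LEMD1 siRNA, 68.4 on TANGO siRNA and 108 on MATE2 siRNA. On the TANGO siRNA array it was 115-fold lower, the largest fall among 12524 named genes, and on the MATE2 siRNA array 73.2-fold lower, the 2nd largest among 12558. The lowest good signals on these arrays were 31.4 on both, so KRT19 stayed above background. Its spots there were dimmer than the median good spot, at 149 and 145, so the size of the folds depends on the background subtracted. On the MIA2 and LEMD1 siRNA arrays KRT19 was above control, at log2 ratios of 0.91 and 0.94, short of 2-fold. KRT7, a type II keratin of simple epithelia, had a signal of 113 on control and 63.6 to 99.2 on the siRNA arrays, without a call. KRT20, of intestinal epithelium, had a good spot on the MATE2 siRNA array alone, at 39.7.

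Keratins of cornifying and other suprabasal cells numbered 5 to 7 measured on an array. KRT1 was called higher on the LEMD1 siRNA array and KRT9 and KRT80 lower on the MATE2 siRNA array, with folds of 2.04, 2.45 and 2.11. These were 1 of 7 higher on LEMD1 (14.3%, against 2.03% of all genes) and 2 of 7 lower on MATE2 (28.6%, against 11.7%). KRT1 had a signal of 43.9 on control, 84.5 on MIA2 siRNA, 89.3 on LEMD1 siRNA, 80.1 on TANGO siRNA and 75.8 on MATE2 siRNA, and was near background on MIA siRNA. Its ratio passed 2-fold on the LEMD1 siRNA array alone, at 1.03 on the log2 scale, beside 0.95 on the MIA2 siRNA array. With 50 added to the signal the value on the LEMD1 siRNA array was 0.57. KRT10, the partner of KRT1, was near background on all 6 arrays. KRT80, a type II keratin of many epithelia, had a signal of 716 on control, 603 on MIA siRNA, 371 on MIA2 siRNA, 362 on LEMD1 siRNA, 387 on TANGO siRNA and 340.0 on MATE2 siRNA. It was called on the MATE2 siRNA array, at -1.07, and lay at -0.95, -0.98 and -0.89 on the MIA2, LEMD1 and TANGO siRNA arrays, so the call and its absence differ by little. KRT9, of palm and sole skin, was called lower on the MATE2 siRNA array, with a signal of 81.6 against 200.2 on control. Neither KRT9 nor KRT80 reached 2-fold after normexp correction, with uncorrected spot means or once 50 was added. KRT2, KRT78 and KRT79 had no call, KRT24 had a good spot on the control, LEMD1 siRNA and MATE2 siRNA arrays at 36.3 to 49.1, and KRT23 was near background on all 6 arrays.

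Hair and inner root sheath keratins made up the largest group. Of 22 with a named probe, 15 had a good spot on at least 1 array and 12 to 14 were measured against control on an array. Called higher were 1 of 13 on the MIA2 siRNA array (7.69%, against 3.29% of all genes), 2 of 13 on LEMD1 (15.4%, against 2.03%), 1 of 12 on TANGO (8.33%, against 5.57%) and 0 of 14 on MIA and on MATE2 (against 0.391% and 5.95%). None was called lower, against 0.258% to 11.7% of all genes. KRT71, of the inner root sheath, had a signal of 199 on control, 289 on MIA siRNA, 470 on MIA2 siRNA, 406 on LEMD1 siRNA, 243 on TANGO siRNA and 353 on MATE2 siRNA. It was called on the MIA2 and LEMD1 siRNA arrays, at log2 ratios of 1.24 and 1.03, and against the MIA siRNA array in place of control it was at 0.70 and 0.49. KRT84 had a signal of 44.5 on control, 79.0 on MIA siRNA, 81.3 on MIA2 siRNA, 89.8 on LEMD1 siRNA, 143 on TANGO siRNA and 70.8 on MATE2 siRNA. The control array was the lowest of the 6 for KRT84, and its calls on the LEMD1 and TANGO siRNA arrays, at 1.01 and 1.68, became 0.18 and 0.85 against the MIA siRNA array. KRT82 was near background on control, at 36.7, and had a good spot on the other 5 arrays, at 44.5 to 76.5. On the MIA2 siRNA array it was at least 2.08-fold higher than control, with 76.5 beside 68.3 on the MIA siRNA array. KRT81 was among the 10 keratin probes of highest control signal and had log2 ratios of -0.26 to 0.21. KRT33A, KRT33B, KRT35, KRT36, KRT37, KRT38, KRT72, KRT83 and KRT85 had good spots on all arrays and no call. KRT27 and KRT28 each had a good spot on 4 arrays, at signals of 42.8 to 60.9, and no call. KRT25, KRT31, KRT32, KRT34, KRT40, KRT73 and KRT74 were near background on all arrays.

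Both types held calls. Of 26 type I genes with a probe, 13 to 16 were measured on an array, and of 21 type II genes 17 or 18. On the MIA2 siRNA array 2 of 15 type I keratins were higher (13.3%) and 1 lower (6.67%), and 3 of 18 type II keratins were higher (16.7%) and 1 lower (5.56%), beside 3.29% and 5.21% of all genes. On the LEMD1 siRNA array 1 of 16 type I was higher and 1 lower (6.25% each), and 5 of 18 type II were higher (27.8%) and 0 lower, beside 2.03% and 3.98%. On the TANGO siRNA array 1 of 13 type I was higher (7.69%) and 3 lower (23.1%), and 4 of 18 type II were higher (22.2%) and 1 lower (5.56%), beside 5.57% and 9.09%. On the MATE2 siRNA array 2 of 16 type I were higher (12.5%) and 4 lower (25%), and 3 of 18 type II were higher (16.7%) and 2 lower (11.1%), beside 5.95% and 11.7%. The type I counts leave out KRT13, saturated on the TANGO and MATE2 siRNA arrays, and the difference between the types was not tested. The type II median was 0.60 on the TANGO siRNA array and 0.56 on the MATE2 siRNA array, against -0.10 and -0.091 for type I. Partners of a pair did not always differ from control the same way: on the TANGO siRNA array the type II KRT5 was at 1.63 and the type I KRT14 at -4.12, whereas KRT8 and KRT18 were lower and KRT4 and KRT13 higher together.

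Neighbours along the chromosome also went apart. In the RefSeq gene order of assembly GRCh38.p14, used for order alone, the protein-coding genes KRT13, KRT15, KRT19, KRT9, KRT14, KRT16 and KRT17 follow one another on chromosome 17. On the MATE2 siRNA array KRT13 was at least 21.5-fold higher by the rank of its saturated spot. There KRT15 and KRT19 were at -1.11 and -6.19, KRT9 and KRT14 at -1.30 and -0.93, and KRT16 and KRT17 at 4.39 and 3.00. On the TANGO siRNA array the same genes from KRT15 to KRT17 were at -0.70, -6.85, -0.51, -4.12, 3.00 and 0.55. On chromosome 12, KRT18 lies beside KRT8 as the one type I gene among type II genes, and both were called lower on the MIA2, TANGO and MATE2 siRNA arrays. KRT5 and KRT71 are neighbours there, and were higher together on the MIA2 and LEMD1 siRNA arrays, where KRT74, next to KRT71, was near background.

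Some siRNA arrays were also set against each other. Between the LEMD1 and MIA2 siRNA arrays 0 of 33 keratins differed by 2-fold, beside 0.904% of 12725 named genes, and the median log2 ratio of LEMD1 siRNA over MIA2 siRNA was -0.068. The widest measured difference was that of KRT35, 1.75-fold higher on the LEMD1 siRNA array, and KRT8 was 1.57-fold higher there. KRT28, near background on the LEMD1 siRNA array, was at least 2.01-fold lower there. Between the TANGO and MATE2 siRNA arrays 4 of 32 keratins differed by 2-fold, a share near the 12.6% of 12702 genes that did. KRT14, KRT17 and KRT16 were 9.11-fold, 5.48-fold and 2.64-fold lower on the TANGO siRNA array than on the MATE2 siRNA array, and KRT84 was 2.02-fold higher. KRT8 and KRT18 lay close together on these arrays, at log2 ratios of TANGO siRNA over MATE2 siRNA of 0.0044 and -0.094.

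Genes that work with keratins were read from lists. Among other intermediate filament genes, 5 or 6 were measured on an array and none was called by the probe taken, although another probe of LMNA was at 1.13 on the MATE2 siRNA array. The B-type lamin gene LMNB1 came nearest, with a signal of 101 on control, 51.2 on TANGO siRNA and 57.1 on MATE2 siRNA. Of the linker genes, which anchor or bundle keratin filaments, 9 or 10 were measured, and 1 was called on each array but MIA, so that a single gene makes up 10% or 11.1% of the list, beside 2.03% to 5.95% of all genes called higher and 3.98% to 11.7% called lower on those arrays. DSP, desmoplakin, which ties keratins to desmosomes, was 3.53-fold higher on the TANGO siRNA array. DST, which ties them to hemidesmosomes, was 2.81-fold higher on the LEMD1 siRNA array by the probe taken, while its other probes were at log2 ratios of -0.27 and -0.81. PLEC, plectin, was at -1.02 on the MIA2 siRNA array and PKP3, a plakophilin of desmosomes, at -1.17 on the MATE2 siRNA array.
Transcription factors and receptors known to act on keratin genes formed the third list. On the MIA siRNA array 0 of 24 measured were called higher and 1 lower (4.17%, against 0.258% of all genes), and on the MIA2 siRNA array 0 of 25 were higher (against 3.29%) and 3 lower (12%, against 5.21%). On the LEMD1 siRNA array 3 of 24 were higher (12.5%, against 2.03%) and 3 lower (12.5%, against 3.98%). On the TANGO siRNA array 6 of 25 were higher (24%, against 5.57%) and 3 lower (12%, against 9.09%), and on the MATE2 siRNA array 3 of 23 were higher (13%, against 5.95%) and 4 lower (17.4%, against 11.7%). SOX9 had a signal of 1330 on control, 1178 on MIA siRNA, 136 on MIA2 siRNA, 176 on LEMD1 siRNA, 357 on TANGO siRNA and 432 on MATE2 siRNA, and was called lower on those 4 arrays. SOX2, a factor of stem and squamous progenitor cells, was near background on the control and MIA siRNA arrays, and was at least 57.0-fold higher on the TANGO siRNA array, 8.33-fold on MATE2, 3.92-fold on MIA2 and 2.26-fold on LEMD1. GRHL3, a factor of the epidermal barrier, was 6.10-fold higher on the TANGO siRNA array, 5.48-fold on MATE2 and 2.71-fold on LEMD1. NOTCH1, a receptor that promotes differentiation, was 6.65-fold, 3.88-fold and 2.30-fold higher on the same arrays, while a second probe of NOTCH1 lay between -0.35 and 0.27 on the log2 scale. Other receptors of the list went the other way. NOTCH3 was called lower on the MIA, MIA2, TANGO and MATE2 siRNA arrays, at -1.22, -1.10, -1.12 and -1.17, and NOTCH2 on the MATE2 siRNA array, at -1.32. The control array had the highest NOTCH3 signal, 286, against 123 to 174 on the siRNA arrays, so all its calls rest on that control spot. TP63, the regulator of basal keratinocytes, was at 0.89 on TANGO siRNA and -0.49 on MATE2 siRNA, without a call.

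**Figure D4:**
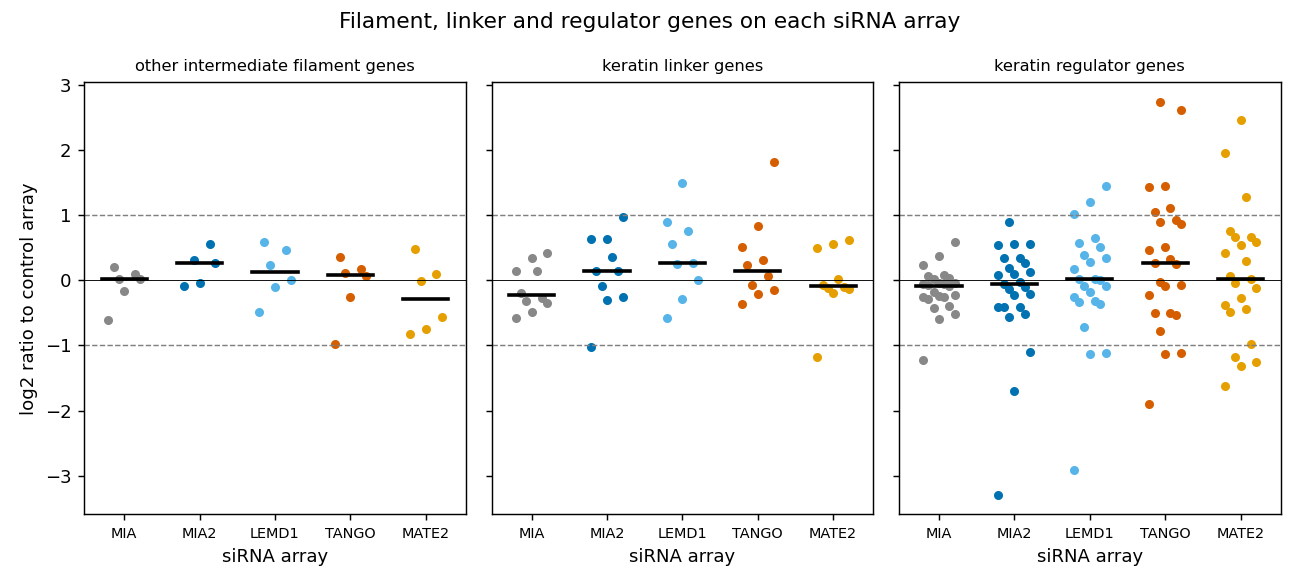
Log2 ratio to the control array (y axis) of other intermediate filament genes, keratin linker genes and keratin regulator genes that were measured, by siRNA array (x axis). Points are genes, black bars medians and dashed lines a 2-fold difference. SOX9 is the lowest point on the MIA2 and LEMD1 siRNA arrays, and SOX2 is not drawn because its ratio is a bound.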

How the data were processed

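RNA from HSC3 cells, with Cy5 as the dye, was read on CodeLink bioarrays of the human whole genome design, 1 array per condition. Per the file headers, the deposited intensity values were exported with CodeLink Expression Analysis 5.0.0.31312; each is the mean of a spot minus the median of its local background, which held within 0.0001 on all unmasked spots. The authors also deposited a table of intensities that they had quantile normalized. From the scanner files, 320 of 53423 gene probes masked on any array were left out, the intensities were quantile normalized, values under 1 were set to 1 and log2 was taken. Equal values of different genes on different arrays mean equal ranks.

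Symbols came from the platform annotation through the gene identifier (23472 probes) or from the accession (655 probes, 4 keratins among them); 905 probes with several symbols and 28391 without one were not named. The probe with the highest mean log2 signal stands for a gene. Where only 1 of the 2 arrays had a good spot, the higher of the signal and the lowest good signal of the other array gave a bound. The names given are keratins with a 2-fold change or bound, the 10 of highest control signal and a set of standard members, and up to 4 genes of each other list. Of the regulators, NOTCH2 and NOTCH3 are also given, beside NOTCH1. Members, lists and alternatives were chosen with earlier results of these data known. The 13 alternatives changed normalization, background, the constant added, flags, probes and the comparator. The code of the call rule was run on simulated data, with changes larger than 2-fold in probes above the median signal. That run does not bear on calls near 2-fold or on dim probes. Some marker genes, and the sums of the epithelial and leukocyte marker lists, are not reported here. Tools were Python 3.11.15, numpy 2.4.6, pandas 2.3.3, scipy 1.17.1, matplotlib 3.10.9, and R 4.3.3 with limma 3.58.1 for normexp.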

Additional observations from a re-analysis of the deposited data

Results flagged for a closer look

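KRT14 was the one keratin called higher on some siRNA arrays and lower on another. Its log2 ratio to control was 1.65 on the MIA2 siRNA array and 1.43 on the LEMD1 siRNA array, and -4.12 on the TANGO siRNA array, a difference of 5.76 between the MIA2 and TANGO siRNA arrays. The direction was the opposite on arrays that share the control, and with 1 array per condition the difference was not tested. No group holds enough arrays to look for a sample far from the others.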

How the results depend on the processing

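Of 34 called log2 ratios of named keratins, 20 kept their direction and stayed at least 2-fold under every alternative run for them. The number of keratins called on the MATE2 and TANGO siRNA arrays and the median of the family on every array moved by less than the set limits under all alternatives (1.5 times for a count, the robust SD of all genes for a median). On the LEMD1 siRNA array 7 keratins were called, and 4 after normexp correction, with uncorrected spot means or once 50 was added, where KRT1, KRT71 and KRT84 fell short of 2-fold. Against the median of the 5 other arrays the count was 2 on the LEMD1 siRNA array, 2 on the MIA2 siRNA array (7 against control) and 4 on the MIA siRNA array (0 against control), and 5 on the MIA siRNA array without a filter on flags. With that comparator KRT6C was at -0.23 on the MIA2 siRNA array, KRT18 at 0.28 on the LEMD1 siRNA array and KRT5 at -0.56 on the MATE2 siRNA array, each opposite to its sign against control; by construction this comparator holds the arrays on which those genes were also changed. In the deposited table KRT18 was at -0.98 on the LEMD1 siRNA array. Normalized without the TANGO and MATE2 siRNA arrays, the counts were 8 on the LEMD1 siRNA array, 7 on MIA2 and 0 on MIA. This normalization could not be applied to the arrays it leaves out, nor the MIA siRNA comparator to its own array. Scaling by the median put the median log2 ratio of all genes on the TANGO siRNA array at -0.12. Ratios of dim probes are limited by signal over background, where the lowest good signals were 27.5 to 38.6. No paired analysis was possible because each condition has 1 array.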
